A study of Homo sapiens with 46 samples.

Results

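The response of DLD-1 cells to 96 h of auxin was compared between a line in which Lamin A/C carries an auxin-inducible degron (LAC) and a line in which Lamin B2 carries it (LB2). The comparison used the 15 libraries, of 46 in the series, whose labels give these lines at 0 or 96 h: 4 of LAC at 0 h, 4 of LAC at 96 h, 4 of LB2 at 0 h and 3 of LB2 at 96 h. The quantity tested for each gene was the interaction, the log2 change of LAC from 0 to 96 h minus that of LB2, so a positive value means that LAC changed more in the upward direction.

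DLD-1 is an established line of adherent human colorectal adenocarcinoma cells. The series also holds untagged parental cells, a Lamin B1 degron line and a 16 h time point, which enter no contrast here but were part of the same fit, its gene filter and its scaling. Auxin, a plant hormone, was dissolved in DMSO and given at 1 mM. The 0 h groups carry the tag as well, and the labels do not say whether they received DMSO. The replicates were separate wells of a plate, so p-values measure only the spread between such wells. Each genotype is a single tagged line, so a different change from 0 to 96 h cannot be assigned to the lamin lost. It cannot be told apart from any other difference between the tagged lines. The same limit holds at 0 h, where 3623 of 21484 genes (16.9%) were called between the lines. The parental response to auxin alone is not part of this contrast, but an effect of auxin that is the same in both lines on the log2 scale cancels in it.

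Lamins are intermediate filament proteins that form a meshwork under the inner nuclear membrane. A-type lamins (A and C) come from LMNA, while B1 and B2 come from LMNB1 and LMNB2 and are farnesylated. The meshwork anchors heterochromatin and, through the LINC complex, links the nucleus to the cytoskeleton. A degron brings the tagged protein to the proteasome once auxin is added.

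STARD4 and INSIG1, of the list of cholesterol and fatty acid synthesis genes, were among the 7 genes that met the naming rule given below. The promoters of called genes of that list are shown for that reason. Members of the list also differed between the lines at 0 h, as given below. SREBP transcription factors, which the sterol-sensing protein INSIG1 holds back, act on such promoters together with the CCAAT-binding factor NF-Y. Below are the windows of the 4 called genes of that list and of YPEL5, the gene with the smallest adjusted p, each from 250 bases before to 50 bases after the start (RefSeq, GRCh38.p14, 5′ to 3′ on the strand of the gene). Capitals mark matches to the motifs named after them.
INSIG1, chr7:155297628-155297927 (+ strand): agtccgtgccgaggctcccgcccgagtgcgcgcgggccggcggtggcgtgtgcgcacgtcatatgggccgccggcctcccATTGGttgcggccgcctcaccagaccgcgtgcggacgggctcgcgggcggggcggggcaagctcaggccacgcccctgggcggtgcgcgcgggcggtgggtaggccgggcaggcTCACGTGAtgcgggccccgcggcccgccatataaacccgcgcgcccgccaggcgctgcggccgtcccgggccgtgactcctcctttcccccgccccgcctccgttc
STARD4, chr5:111512486-111512785 (- strand): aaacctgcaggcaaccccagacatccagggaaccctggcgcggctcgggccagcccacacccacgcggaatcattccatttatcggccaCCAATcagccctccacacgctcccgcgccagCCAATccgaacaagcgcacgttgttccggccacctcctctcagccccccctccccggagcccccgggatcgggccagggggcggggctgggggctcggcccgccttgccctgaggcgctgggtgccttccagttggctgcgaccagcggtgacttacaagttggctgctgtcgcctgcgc
MSMO1, chr4:165327419-165327718 (+ strand): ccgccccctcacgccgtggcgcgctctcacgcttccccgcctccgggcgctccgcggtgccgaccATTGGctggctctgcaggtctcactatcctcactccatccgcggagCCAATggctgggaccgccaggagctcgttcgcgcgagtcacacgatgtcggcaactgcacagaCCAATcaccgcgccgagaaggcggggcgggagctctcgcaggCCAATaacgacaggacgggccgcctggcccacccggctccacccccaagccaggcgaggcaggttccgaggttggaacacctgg
SCD, chr10:100346983-100347282 (+ strand): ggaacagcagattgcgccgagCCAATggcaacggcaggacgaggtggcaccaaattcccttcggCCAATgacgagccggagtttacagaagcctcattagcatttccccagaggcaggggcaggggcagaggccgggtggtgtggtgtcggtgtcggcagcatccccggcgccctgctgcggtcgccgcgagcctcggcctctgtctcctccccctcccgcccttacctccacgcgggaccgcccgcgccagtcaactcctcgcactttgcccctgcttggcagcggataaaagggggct
YPEL5, chr2:30146757-30147056 (+ strand): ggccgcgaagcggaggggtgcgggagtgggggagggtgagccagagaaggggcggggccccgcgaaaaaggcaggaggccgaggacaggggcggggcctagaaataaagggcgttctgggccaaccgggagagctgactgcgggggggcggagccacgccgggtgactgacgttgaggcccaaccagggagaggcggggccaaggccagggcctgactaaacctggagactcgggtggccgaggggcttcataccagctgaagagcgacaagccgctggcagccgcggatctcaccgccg

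The windows first chosen were those of INSIG1, STARD4 and YPEL5, and 4 motifs were searched on both strands. The first 2, TCACNCCAC (sterol regulatory element core) and TGATGNAA (ATF4 composite site), had no match in any of the 5 windows now shown. TCACGTGA (an E-box form of the sterol element) and CCAAT, and the windows of MSMO1 and SCD, were added after those motifs had matched none of the windows first chosen and after the sequences had been read. Their matches are therefore no more than a description. TCACGTGA was found in INSIG1, and CCAAT, on either strand, in INSIG1, STARD4, MSMO1 and SCD, with no match in YPEL5. Over 35116 RefSeq promoter windows of the same length, TCACNCCAC was present in 1.13%, TGATGNAA in 3.62%, TCACGTGA in 0.98% and CCAAT in 34.6%. Among 34 windows of the cholesterol and fatty acid list, the corresponding numbers of windows were 1, 0, 1 and 24. Among 34 windows of the ATF4 list described below they were 0, 4, 0 and 17. No motif overlapped another in the windows shown.

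The 15 libraries held from 1894447 to 29739484 counts, and 3 of them, all at 0 h, were under 5000000. Replicate 1 of LAC at 0 h (3318819 counts) and replicate 1 of LB2 at 0 h (1894447 counts) stood apart from the rest. On the first principal component (39.2% of the variance) they lay at 44.4 and 51.3, and the other 13 between -14.5 and 6.97. Levels in these libraries rose with the GC content of the gene relative to the other libraries (Spearman's rho across genes 0.49 and 0.38). Results are also given without both of them. Trends with GC were not limited to these libraries, so leaving both out does not remove such trends. The other LAC libraries at 0 h had a rho of -0.21, 0.28 and 0.18, and those at 96 h of -0.04, -0.43, -0.35 and -0.23. In LB2 the rest had -0.29, -0.24 and -0.13 at 0 h and -0.32, -0.07 and -0.20 at 96 h. Epithelial markers summed to between 6638 and 10933.5 CPM in every library (for markers, counts scaled by the library total without TMM factors), with EPCAM, CDH1, KRT8, KRT18, KRT19 and CDX2 present throughout CDX1 at 0 in 12 of 15, and VIL1, LGALS4, CEACAM5 and GPA33 at 3.12 CPM or less. Summed fibroblast markers did not exceed 7.23 CPM and COL1A2, DCN, LUM and POSTN were at 0 in all 15 libraries. Summed endothelial markers were 3.79 to 16.3 CPM, mostly VWF, which was present in every library, while KDR was at 0 in all 15. Summed immune markers, mostly CD14, were 0.537 to 2.87 CPM at 0 h and 3.00 to 3.89 CPM at 96 h in both lines. In bulk RNA, fewer cells of a type and less RNA per cell cannot be told apart.

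The lamin transcripts did not pass the test of the interaction. The degron acts on the protein, so the transcript of the tagged gene does not check its loss, and protein levels were not analysed here. Levels from here on are CPM scaled with TMM factors. LMNA (chr1:156082573-156140081, + strand) was at 773, 263, 373 and 332 CPM in LAC at 0 h and at 332, 203, 240 and 304 CPM at 96 h. In LB2, LMNA was at 1547, 512, 494 and 485 CPM at 0 h and at 339, 475 and 428 CPM at 96 h. The groups of LAC overlapped, those of LB2 did not, and in both lines the replicate 1 library at 0 h was the highest. The fitted LMNA change was -0.68 ± 0.26 (log2, SE) in LAC and -0.87 ± 0.28 in LB2, with an interaction of 0.18 ± 0.38 (adjusted p = 0.911, edgeR).

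LMNB2 (chr19:2427638-2456959, - strand) was at 634, 392, 511 and 454 CPM in LAC at 0 h and at 450, 248, 283 and 384 CPM at 96 h. In LB2 it was at 261, 109, 99.9 and 100 CPM at 0 h and at 142, 198 and 177 CPM at 96 h. LMNB2 was thus lower in every LB2 library at 0 h than in any LAC library at 0 h (1.84 higher in LAC on the log2 scale, adjusted p = 1.68e-08, edgeR). The LMNB2 interaction was -0.85 ± 0.30 (log2, SE; adjusted p = 0.206, edgeR). Without both libraries that stand apart it was -1.15 (adjusted p = 0.00375, edgeR). LMNB1, which is tagged in neither line, had an interaction of -0.55 ± 0.21 (adjusted p = 0.255), and of -0.70 without both libraries (adjusted p = 0.00816, edgeR). Of the 22 genes of inner nuclear membrane proteins and LINC partners, 0 were called, beside 0.489% of all genes. At that share, 0 calls among 22 genes say little about these partners. The smallest p in that list belonged to SYNE1, which encodes nesprin-1 (1.01 ± 0.33, adjusted p = 0.153, edgeR).

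The interaction was called for 105 of 21484 genes (0.489%) at an adjusted p under 0.05: 36 (0.168%) were higher in LAC than in LB2 and 69 (0.321%) lower. In the same fit, 3304 genes (15.4%) changed in LAC between 0 and 96 h, 1447 up (6.74%) and 1857 down (8.64%), and 762 (3.55%) changed in LB2, 419 up (1.95%) and 343 down (1.6%). The count of 105 was not kept in a fit of the 15 libraries alone, where the gene filter, the scaling and the estimate of the spread all changed together: 0 genes were called there by edgeR (lowest adjusted p 0.121), with 1586 of 19825 genes at an unadjusted p under 0.05. All 105 genes had the same sign there and an unadjusted p under 0.05. The contrast in the full fit uses these same libraries, so this is no separate support for the 105 calls. Without both libraries that stand apart 726 genes (3.42%) were called, 0.913% higher and 2.5% lower, and these included all 105. The share of higher genes moved with scaling, from 36 of 105 to 76 of 178 with RLE scaling and 76 of 164 with library size only.

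**Figure D1:**
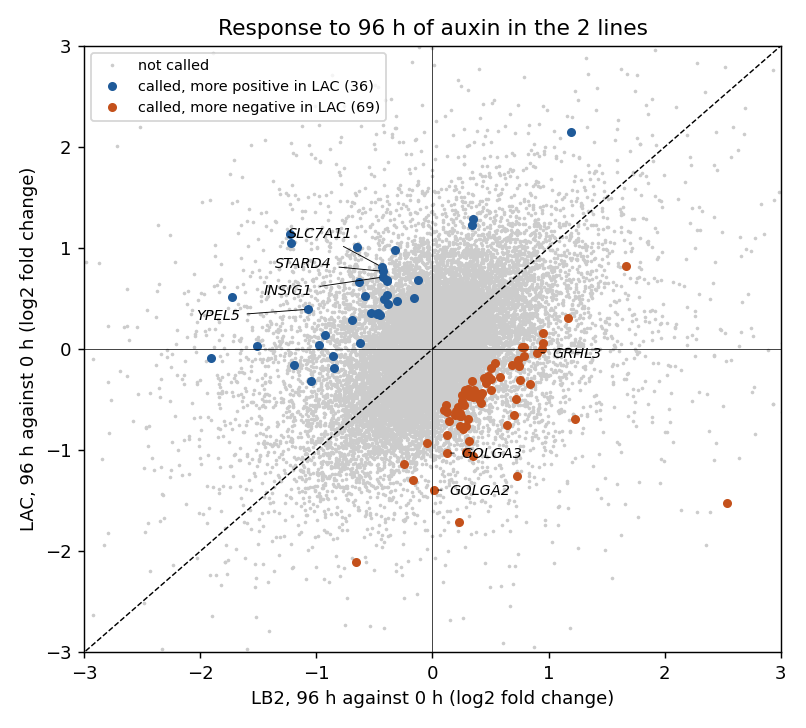
Log2 change from 0 to 96 h in LB2 (x axis) and LAC (y axis); each point is a gene, and the dashed line marks equal change. The 36 blue and 69 orange points are genes whose interaction was called, and 98 genes beyond 3 on either axis, none of them called, are not drawn.

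The 69 lower genes mostly fell in LAC or rose in LB2. The LAC fall was called for 45 of them and the LB2 rise for 23, with median log2 changes of -0.50 in LAC and 0.35 in LB2. At 0 h, where 16.9% of all genes were called between the lines (9.65% higher and 7.21% lower in LAC), 60 of the 69 were called higher in LAC than in LB2. Of the 69, 57 were called at 0 h and not at 96 h, when 5.1% of all genes were called. Of the 36 higher genes, the LAC rise was called for 21 and the LB2 fall for 15, with medians of 0.50 and -0.50. At 0 h, 28 of the 36 were called lower in LAC, and 26 were called at 0 h and not at 96 h. The contrasts at 0 h and 96 h use the same libraries as the interaction, so they describe it and do not support it. For 5 genes the lines' own changes were called in opposite directions: YPEL5, MSMO1, SMIM3 and RNU5B-1 rose in LAC and fell in LB2, and ZC3H13 fell in LAC and rose in LB2. Some of these calls lay close to the threshold. Adjusted p was 0.0464 for YPEL5 in LAC, 0.0486 for MSMO1 in LB2, and 0.036 and 0.0471 for ZC3H13 in LAC and LB2 (edgeR).

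The interaction also moved with base composition. Across 20450 genes of known GC content, Spearman's rho between GC and the interaction was -0.32, against -0.45 for the change in LAC and -0.15 for that in LB2. The lower genes had a median GC content of 53.4% and exonic length of 7948 bases, and the higher genes of 44.6% and 3197.5 bases, beside 48.7% and 3720 bases for all genes tested. After removal of each library's trend with GC and length, 357 genes (1.66%) were called, 0.54% higher and 1.12% lower, among them 94 of the 105. What part GC-related differences between libraries have in the 105 calls was not tested.

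The naming rule asked for a call in the full fit, with the GC and length trend removed and in each of the 15 fits that leave out 1 library. It was met by 7 protein-coding genes: YPEL5, SLC7A11, STARD4 and INSIG1 were higher, and GOLGA2, GOLGA3 and GRHL3 lower. These were also the only 7 of the 105 that stayed called in every leave-one-out fit. All 7 lost the call with the 15 libraries alone (adjusted p from 0.237 to 0.307, edgeR), and GRHL3 lost it also without the filter on low counts (adjusted p = 0.0824, edgeR).

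**Figure D2:**
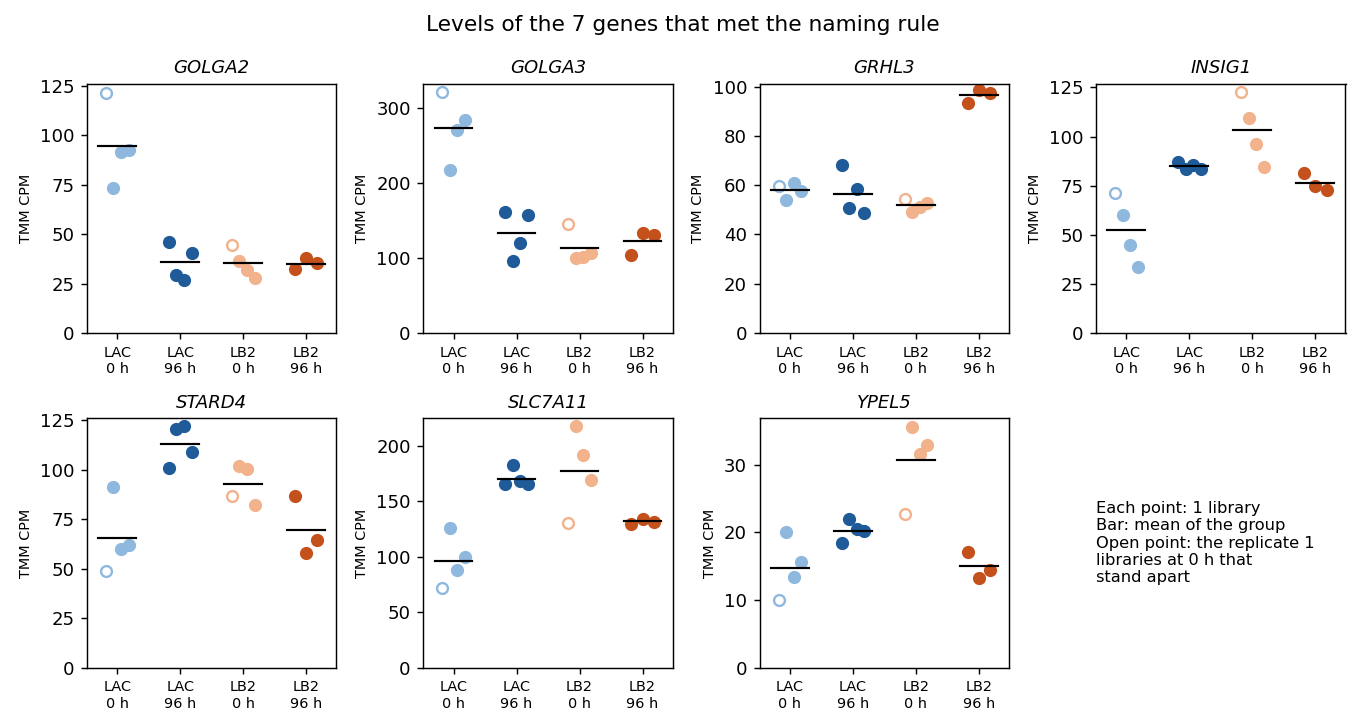
TMM-scaled CPM (y axis, from 0) of the 7 genes in each library, by line and time (x axis); bars are group means and open points the replicate 1 libraries at 0 h that stand apart. GRHL3 sits between 93.5 and 98.8 CPM in LB2 at 96 h and below 70 in every other library.

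YPEL5 (chr2:30146941-30160533, + strand) encodes a subunit of the CTLH E3 ubiquitin ligase complex. It was at 10.0, 20.0, 13.3 and 15.7 CPM in LAC at 0 h and at 18.5, 21.9, 20.5 and 20.2 CPM at 96 h. YPEL5 in LB2 was at 22.7, 35.6, 31.6 and 32.9 CPM at 0 h and at 17.2, 13.3 and 14.5 CPM at 96 h. YPEL5 rose by 0.39 ± 0.14 (log2, SE) in LAC and fell by 1.07 on the same scale in LB2, an interaction of 1.47 ± 0.21 (adjusted p = 0.000122, edgeR). The LB2 groups did not overlap, and those of LAC overlapped through 1 library at 0 h. Its rise in LAC was called close to the threshold (adjusted p = 0.0464, edgeR).

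SLC7A11 (chr4:138164097-138242349, - strand) encodes the cystine/glutamate antiporter subunit xCT, a target of ATF4 and NRF2. It was at 71.5, 126, 88.0 and 99.9 CPM in LAC at 0 h and at 165, 183, 169 and 166 CPM at 96 h. The LB2 values of SLC7A11 were 131, 218, 192 and 169 CPM at 0 h and 130, 134 and 132 CPM at 96 h. The LAC groups did not overlap, and those of LB2 did. SLC7A11 rose by 0.81 ± 0.14 in LAC (adjusted p = 5.57e-05) and its change in LB2 was -0.44 ± 0.15 (adjusted p = 0.101), with an interaction of 1.25 ± 0.21 (log2, SE; adjusted p = 0.00144, edgeR). SLC7A11-AS1 overlaps it on the opposite strand, and whether reads were counted by strand is not given in the sources used here.

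STARD4 (chr5:111496033-111512590, - strand) encodes a sterol transport protein. It was at 48.9, 91.3, 59.9 and 62.3 CPM in LAC at 0 h and at 101, 121, 122 and 109 CPM at 96 h. In LB2 it was at 87.0, 102, 101 and 82.3 CPM at 0 h and at 86.7, 58.1 and 64.6 CPM at 96 h. Every LAC library at 96 h was above every LAC library at 0 h, and the LB2 groups overlapped through 1 library. The STARD4 interaction was 1.19 ± 0.21 (log2, SE; adjusted p = 0.00392, edgeR), with changes of 0.77 ± 0.14 in LAC and -0.42 ± 0.15 in LB2. STARD4-AS1 overlaps the gene on the opposite strand.

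INSIG1 (chr7:155297776-155310235, + strand) encodes the endoplasmic reticulum protein that retains SREBPs when sterols are plentiful. It was at 71.2, 59.9, 44.8 and 33.7 CPM in LAC at 0 h and at 87.0, 83.4, 85.4 and 83.6 CPM at 96 h. LB2 had INSIG1 at 123, 109, 96.4 and 84.6 CPM at 0 h and at 81.5, 74.8 and 73.0 CPM at 96 h. Neither line's groups overlapped. The INSIG1 interaction was 1.14 ± 0.20 (log2, SE; adjusted p = 0.0047, edgeR), with changes of 0.71 ± 0.14 in LAC (adjusted p = 0.000331) and -0.43 ± 0.15 in LB2 (adjusted p = 0.106).

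GOLGA2 (chr9:128255829-128276026, - strand) encodes the cis-Golgi matrix protein GM130. It was at 121, 73.2, 91.3 and 92.3 CPM in LAC at 0 h and at 46.2, 29.2, 26.9 and 40.6 CPM at 96 h. For LB2, GOLGA2 was at 44.4, 36.7, 31.8 and 28.0 CPM at 0 h and at 32.1, 37.7 and 35.2 CPM at 96 h. LAC at 0 h stood above all other libraries, and the other groups overlapped. GOLGA2 fell by 1.39 on the log2 scale in LAC (adjusted p = 8.58e-09) and changed by 0.02 ± 0.17 in LB2, an interaction of -1.41 ± 0.23 (log2, SE; adjusted p = 0.00139, edgeR). SWI5 overlaps GOLGA2 on the opposite strand.

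GOLGA3 (chr12:132768902-132829143, - strand), also a Golgi coiled-coil protein gene, had the same shape. It was at 321, 217, 271 and 284 CPM in LAC at 0 h and at 162, 96.5, 120 and 157 CPM at 96 h. In LB2 it was at 146, 100, 102 and 106 CPM at 0 h and at 103, 133 and 131 CPM at 96 h. Again LAC at 0 h lay above all other libraries. The GOLGA3 interaction was -1.15 ± 0.21 (log2, SE; adjusted p = 0.0058, edgeR). CHFR overlaps it on the same strand and RPS11P5 on the opposite one.

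GRHL3 (chr1:24199558-24364482, + strand), a Grainyhead transcription factor of epithelial differentiation, differed through LB2. It was at 59.9, 54.1, 60.8 and 57.5 CPM in LAC at 0 h and at 68.3, 50.6, 58.4 and 48.9 CPM at 96 h. In LB2 it was at 54.3, 49.1, 51.2 and 52.7 CPM at 0 h and at 93.5, 98.8 and 97.5 CPM at 96 h. GRHL3 rose by 0.90 ± 0.13 (log2, SE) in LB2 (adjusted p = 4.71e-06) and changed by -0.03 ± 0.12 in LAC, an interaction of -0.94 ± 0.17 (adjusted p = 0.00646, edgeR). LINC02800, GRHL3-AS1 and STPG1 overlap the gene.

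Gene lists are given by counts and medians, beside a median interaction of 0.01 (log2) and the 0.168% higher and 0.321% lower calls over all genes. Of 33 cholesterol and fatty acid synthesis genes, 4 were higher and 0 lower, with a median interaction of 0.31. Besides STARD4 and INSIG1 these were MSMO1, a sterol C4-demethylation enzyme (1.11 ± 0.24, adjusted p = 0.0211, edgeR), and SCD, the stearoyl-CoA desaturase (0.88 ± 0.22, adjusted p = 0.0417, edgeR). MSMO1 was at 100 to 205 CPM in LAC at 0 h and 179 to 245 at 96 h, and at 207 to 335 CPM in LB2 at 0 h and 178 to 205 at 96 h. SCD was at 303 to 518 CPM in LAC at 0 h and 845 to 1055 at 96 h, and at 525 to 734 CPM in LB2 at 0 h and 644 to 889 at 96 h. SCD differed from the other 3 in that its fitted change was above 0 in both lines (1.23 ± 0.15 in LAC and 0.34 ± 0.16 in LB2, the latter not called). In LAC 6 of the 33 rose and 4 fell, beside 6.74% and 8.64% of all genes, so the falls were near the share of all genes. In LB2 0 rose and 5 fell, beside 1.95% and 1.6%. The median change of the list was 0.06 in LAC and -0.31 in LB2. At 0 h, 1 of the 33 was called higher and 13 lower in LAC than in LB2 (all genes 9.65% and 7.21%). At 96 h 2 were higher and 2 lower. What part the levels at 0 h have in the difference of this list was not tested. Without both libraries that stand apart, 5 were higher and 1 lower (all genes 0.913% and 2.5%), with a median of 0.19.

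Of 25 genes of the ATF4 stress response, which covers amino acid synthesis and transport, 3 were higher and 0 lower, with a median of 0.30. They were SLC7A11, ATF3, a stress-induced transcription factor (1.01 ± 0.20, adjusted p = 0.011, edgeR), and PSPH, the last enzyme of serine synthesis (0.73 ± 0.17, adjusted p = 0.0326, edgeR). ATF3 was at 17.5 to 21.0 CPM in LAC at 0 h and 15.6 to 21.9 at 96 h, and at 32.1 to 38.3 CPM in LB2 at 0 h and 15.6 to 19.3 at 96 h. PSPH was at 111 to 129 CPM in LAC at 0 h and 86.8 to 103 at 96 h, and at 185 to 214 CPM in LB2 at 0 h and 94.5 to 99.6 at 96 h. Both thus differed mostly through a fall in LB2 from a higher level at 0 h. In LAC 2 of the 25 rose and 4 fell (all genes 6.74% and 8.64%), and in LB2 0 rose and 7 fell (all genes 1.95% and 1.6%). At 0 h, 3 of the 25 were called higher and 11 lower in LAC than in LB2 (all genes 9.65% and 7.21%). At 96 h 3 were higher and 0 lower. Without both libraries that stand apart, 5 were higher and 0 lower (all genes 0.913% and 2.5%), with a median of 0.21.

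**Figure D3:**
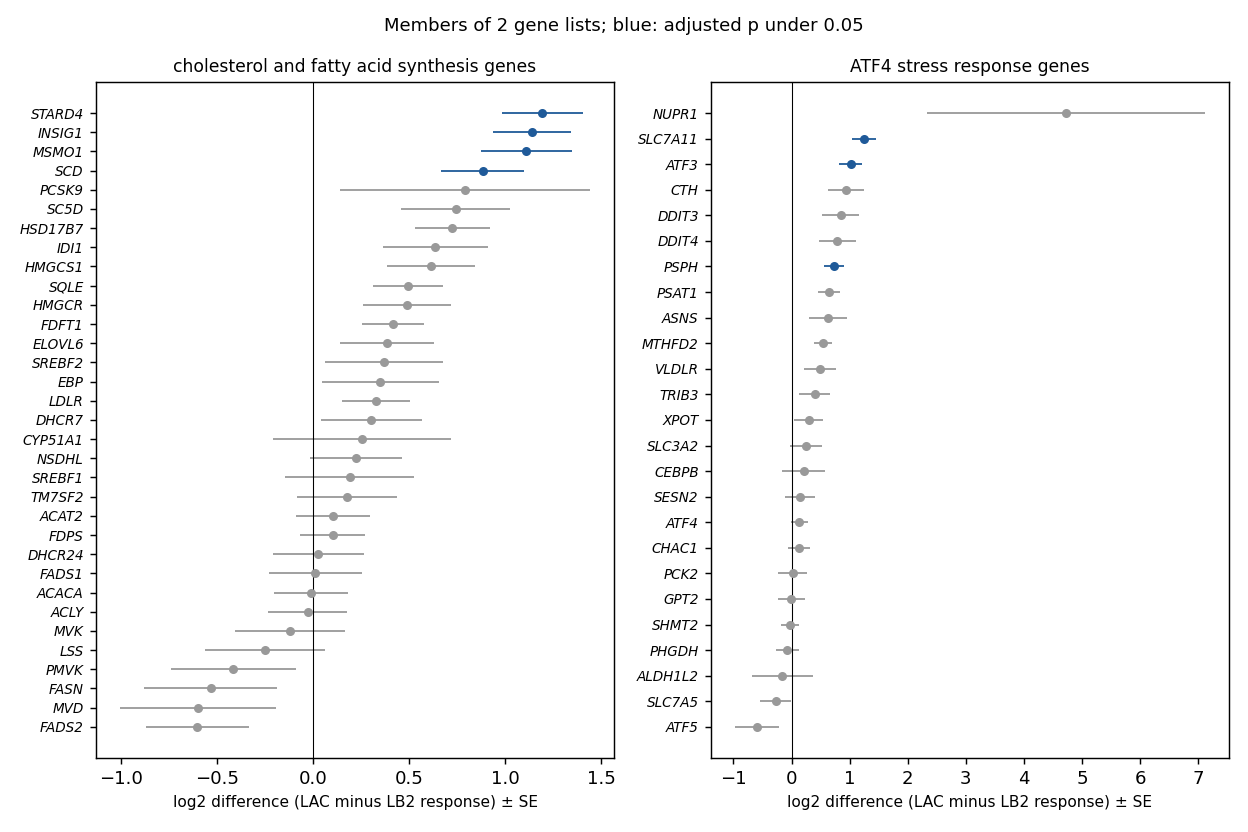
Interaction (log2, x axis, with its SE as the bar) of each tested member (y axis) of the cholesterol and fatty acid list (33 genes) and the ATF4 list (25 genes). The 4 and 3 blue points are called and lie above 0, and members on both sides of 0 are grey.

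Transcripts of the mitochondrial genome had the lowest median of all lists, -1.48, with 0 of 15 called. All 15 fitted values were below 0. The smallest adjusted p belonged to MT-ATP6 (-1.53 ± 0.41) and MT-ATP8 (-1.84 ± 0.49), subunits of the ATP synthase, at 0.0666 each in edgeR. In LAC 7 of the 15 fell and 0 rose (8.64% of all genes fell), and in LB2 0 were called, with medians of -0.87 and 0.60. The 13 protein-coding mitochondrial genes together made up 1.02 ± 0.32% of counts in LAC at 0 h (SD, n = 4) and 0.828 ± 0.102% at 96 h (n = 4). In LB2 they made up 1.18 ± 0.52% at 0 h (n = 4) and 1.71 ± 0.13% at 96 h (n = 3). The lines overlapped at 0 h and did not at 96 h. With the GC and length trend removed 11 of the 15 were called lower (background 1.12% lower), and without both libraries that stand apart 7 were (background 2.5%). Of 52 nuclear-encoded respiratory chain genes, 0 were called (median 0.03).

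**Figure D4:**
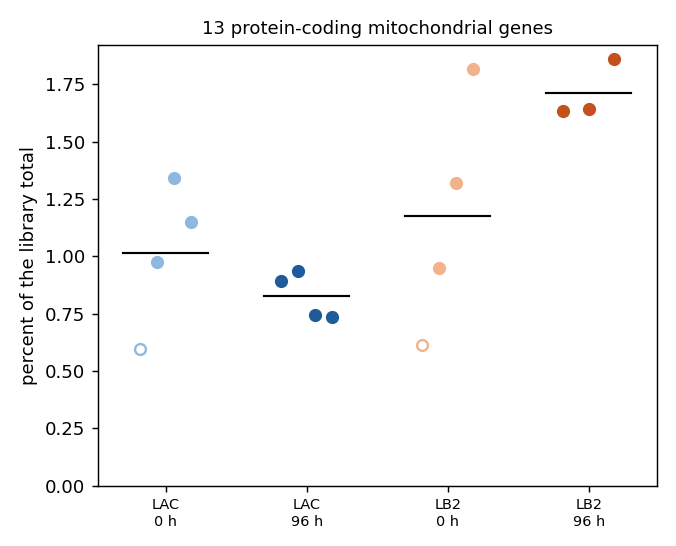
Share of each library's counts (y axis, percent, from 0) that fell on the 13 protein-coding mitochondrial genes, by line and time (x axis); bars are group means and open points the libraries that stand apart. LAC libraries at 96 h lie between 0.735 and 0.937% and LB2 libraries at 96 h between 1.63 and 1.86%.

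Of 30 SRF targets and contractile actin genes, 1 was lower, MYH10, which encodes a non-muscle myosin heavy chain (-0.69 ± 0.17, adjusted p = 0.0487, edgeR), and the list median was -0.32. In LAC 15 of the 30 fell and 0 rose (all genes: 8.64% fell), and in LB2 7 fell and 0 rose (all genes: 1.6% fell). Without both libraries that stand apart, 8 of the 30 were called lower in the interaction, beside 2.5% of all genes. Of 22 YAP targets tested, 0 were called in the interaction (median -0.18), while 12 fell in LAC (8.64% of all genes) and 6 in LB2 (1.6% of all genes).

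Single members were called in 5 further lists. MKI67, the Ki-67 proliferation antigen, was the only one of 34 G2/M genes (-1.06 ± 0.21, adjusted p = 0.011, edgeR). The list median was 0.17, opposite in sign to it, but -0.03 with the GC and length trend removed. CDX2, an intestinal transcription factor, was the only one of 23 goblet, secretory and enterocyte genes tested (-0.75 ± 0.19, adjusted p = 0.0487, edgeR). TPR, a nuclear basket protein, was the only one of 30 nuclear pore genes (-0.72 ± 0.18, adjusted p = 0.0417, edgeR). Of these 30, 0 were higher and 4 lower without both libraries that stand apart (all genes 0.913% and 2.5%). RPLP0 was the only one of 76 cytosolic ribosomal protein genes (0.69 ± 0.17, adjusted p = 0.0417, edgeR). Among these 76, 6 were higher and 0 lower without both libraries, beside the same shares of all genes. ATF3, already counted in the ATF4 list, was the only one of 23 immediate early genes, and the median of these 23 was -0.29, opposite in sign to it. Without both libraries that stand apart, 1 of the 23 was higher and 4 were lower, beside 0.913% and 2.5% of all genes. MKI67, CDX2 and TPR had fitted rises in LB2 that were called and no called change in LAC. The lists of heterochromatin factors (25 genes tested), integrins and focal adhesion (26), epithelial junctions and keratins (26), MAPK feedback (18), WNT feedback (19), aryl hydrocarbon receptor targets (11), p53 targets (24), interferon-stimulated genes (26), cytokines and NF-kB targets (25), DNA replication and S phase (36), and hypoxia and glycolysis (32) had 0 calls in the interaction. Beside 0.489% of all genes, 0 calls in lists of these sizes say little about their members. Leaving out both libraries that stand apart, 4 heterochromatin factors were lower and 0 higher. Of the integrin list 3 were then lower and 1 higher, and of the junction list 3 lower and 0 higher. The rest of these lists had 0 to 2 calls in either direction (all genes 0.913% higher and 2.5% lower).

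**Figure D5:**
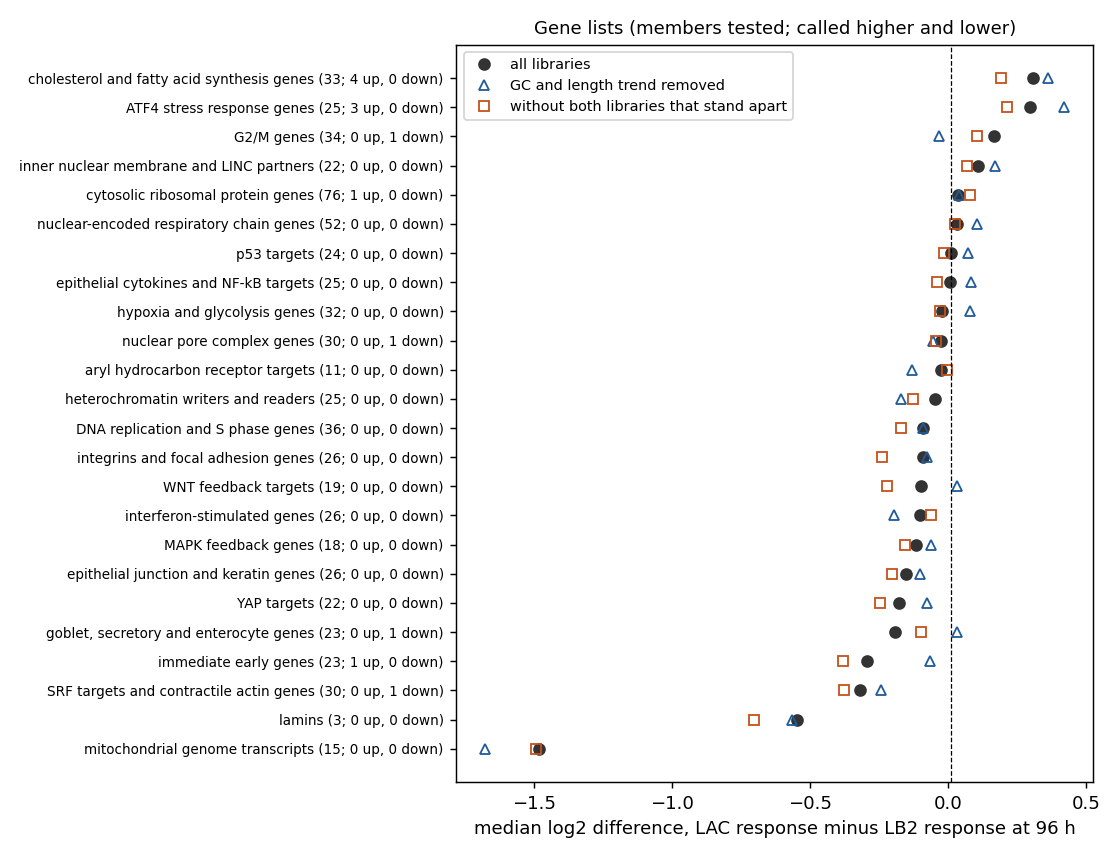
Median interaction (log2, x axis) of the 24 gene lists (y axis) with all libraries, with the GC and length trend removed, and without both libraries that stand apart; the dashed line is the median of all genes. The mitochondrial list lies lowest at -1.48 and the cholesterol list highest at 0.31 with all libraries.

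A further 6 families were looked at after the called genes were seen, and their counts carry no test. Over all genes 0.168% were higher and 0.321% lower. Because the families were chosen with the called genes known, that choice in part fixed their counts. Of 13 golgins and Golgi matrix genes, 4 were lower: GOLGA2, GOLGA3, GOLGA4 (-0.87 ± 0.17, adjusted p = 0.0129, edgeR) and GOLGB1, or giantin (-0.69 ± 0.17, adjusted p = 0.0417, edgeR). Of 8 SAFB family and nuclear matrix RNA-binding protein genes, 4 were lower: SAFB, SAFB2, SRRM2 and HNRNPU. The first (chr19:5623035-5668478, + strand) and SAFB2 (chr19:5586999-5624046, - strand) overlap on opposite strands, and whether reads were counted by strand is not given. SAFB was at 39.6 to 79.3 CPM in LAC at 0 h and 29.7 to 43.7 at 96 h, and at 23.2 to 55.4 CPM in LB2 at 0 h and 49.0 to 57.4 at 96 h (-1.35 ± 0.30, adjusted p = 0.0244, edgeR). Of 25 genes of RNA polymerase II and its elongation factors, 3 were lower (POLR2A, GTF2F1 and SUPT6H). YPEL1, a paralog of YPEL5, was higher (2.25 ± 0.53, adjusted p = 0.0383, edgeR), from 0.97 to 1.96 CPM in LAC at 0 h and 1.79 to 2.93 at 96 h, and from 1.11 to 2.35 CPM in LB2 at 0 h and 0.209 to 0.797 at 96 h. These levels rest on few reads: a count of 3 was 1.58 CPM in replicate 1 of LB2 at 0 h and 0.904 CPM in replicate 1 of LAC at 0 h. Of 20 NRF2 targets, SLC7A11 and TXNRD1, which encodes thioredoxin reductase, were higher. Of 17 clock genes, PER2 was lower in the interaction although it rose in both lines.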

How the data were processed

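Stranded, ribosomal RNA-depleted total RNA libraries were sequenced in pairs, per the labels' protocols. The authors deposited raw counts per gene, made with featureCounts 1.6.4 in an nf-core/rnaseq 1.4.2 environment per the file headers, and STAR 2.7.10a and GRCh38 are named in the submitters' processing notes. The strand setting and annotation release are not given in the sources used here. All 46 count columns were matched by name, and 1 gene broken over 3 lines was left out of the table, which held 62756 others.

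Counts were tested two-sided with edgeR 4.0.16 (R 4.3.3): quasi-likelihood, 1 fit of 46 libraries, 12 groups, TMM, filterByExpr, 21484 genes, Benjamini-Hochberg adjustment, called under 0.05. A count of 3, the most a count of 0 allows, was 0.101 to 1.58 CPM, counting error only. Alternatives included DESeq2 1.42.0 and voom (limma 3.58.1). Genes were named where called in the full fit, with the GC and length trend removed (splines on GENCODE 29 GC) and in each leave-one-out fit, at 2 CPM or more; the 3 lamins always; and per list up to 4 called members, or else up to 2 by p. The text gives some of the last. Members, lists and rules were chosen with earlier results of these data known; 2 alternatives, 6 families, 2 promoter motifs and the MSMO1 and SCD promoter windows were added after values or sequences were seen. Among the 21 replicate pairs no 2 libraries were alike within counting noise (lowest chi-square per degree of freedom 3.65).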

Additional observations from a re-analysis of the deposited data

Results flagged for a closer look

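The 2 lines differed by the test of the interaction itself in 105 genes. Values follow only for the called genes among those the naming rule gives. They are not the largest of the 105: CDC42-IT1 had -4.07 and ELFN2 -1.98, and YPEL1, given above, lay beyond YPEL5. The differences (log2, LAC response minus LB2 response) were 1.47 for YPEL5, 1.25 for SLC7A11, 1.19 for STARD4, 1.14 for INSIG1, 1.11 for MSMO1, 1.01 for ATF3, 0.88 for SCD, 0.73 for PSPH and 0.69 for RPLP0. On the lower side they were -1.41 for GOLGA2, -1.15 for GOLGA3, -1.06 for MKI67, -0.94 for GRHL3, -0.75 for CDX2, -0.72 for TPR and -0.69 for MYH10.

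Dixon's test at 95%, which chance meets in about 1 in 20 groups, was run on the 49 genes the naming rule gives, in the 3 groups of 4 libraries. A single library lay far from the other 3 in 13 of 147 groups. In LAC at 0 h the highest library was at 294.6 CPM for LMNB1, 93.9 for DUSP7 and 64.1 for ALDH3A1, and in LAC at 96 h at 14.2 CPM for EGLN3. In LB2 at 0 h the highest was at 1547 CPM for LMNA, 261 for LMNB2, 146 for GOLGA3, 12.7 for SYNE1, 69.3 for PRR14, 288 for PTPN14, 2097 for PLEC and 52.7 for DUSP7, and the lowest at 27.5 CPM for DSC2. Replicate 1 of LB2 at 0 h, which stands apart, was the far library in 7 of the 13. Over the 105 called genes the same held for 17 of 315 groups, GOLGA3 and GTF2F1 in LB2 at 0 h among them.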

How the results depend on the processing

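The 105 calls of the interaction became 178 with RLE scaling, 164 with library size only, 0 with the 15 libraries alone, 29 without parental libraries, 755 without libraries under 5000000 counts, 357 with the GC and length trend removed, 545 with DESeq2 and 3241 with voom and sample quality weights. Chosen after seeing the data, leaving out both libraries that stand apart gave 726, and 720 with the trend removed too. Leaving out 1 library gave 7 to 1087 calls, lowest without LB2 at 96 h replicate 3 and highest without LB2 at 0 h replicate 1; of the 15 libraries, only the removal of LAC at 0 h replicate 1 (88) and LAC at 96 h replicate 4 (77) kept the count within 1.5 times. The replicate number as a block gave 122, and 457 with the trend removed. Same-numbered libraries at 0 and 96 h correlated at 0.39, 0.63, -0.02 and 0.005 in LAC (replicates 1 to 4). In LB2 they correlated at -0.36, -0.49 and -0.02 (replicates 1 to 3). Different-numbered libraries reached 0.20 in LAC and 0.54 in LB2. Whether the numbers mark shared handling was not tested.

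For the LAC change (3304) the 15 libraries alone gave 1119 and voom 5483, and leaving out 1 library 1755 to 4632. For the LB2 change (762) the values were 226 and 2690, 1214 without libraries under 5000000 counts, 1514 with the trend removed, 1719 with the block and the trend removed, 1275 and 1903 without both libraries (the latter with the trend removed), 1265 with DESeq2, and 336 to 1073. For LAC against LB2 at 0 h (3623) the 15 libraries alone gave 1899, voom 5983 and leaving out 1 library 2288 to 5180. At 96 h (1096) the values were 555 with the 15 alone, 2312 without libraries under 5000000 counts, 2164 with the trend removed, 2386 with the block too, 1982 and 2917 without both libraries, 4168 with voom, and 656 to 1466. The causes were not tested. The 7 genes of the naming rule and the called members of the 24 lists kept their sign in all 28 alternatives. The alternatives share all or most of their libraries with the full fit that called these genes, so this is no separate support. The uncalled LMNA value ranged from -0.40 to 0.59. LMNA was called in 0 of 28 alternatives, LMNB1 in 5 and LMNB2 in 6. Depth limits the 0 h groups most.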

Other observations

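KLHL24, a ubiquitin ligase adaptor of keratin turnover, was at 5.83 to 13.0 CPM in LAC at 0 h and 17.8 to 22.3 at 96 h, and at 19.1 to 22.8 CPM in LB2 at 0 h and 13.2 to 20.9 at 96 h (interaction 1.31 ± 0.26, adjusted p = 0.0129, edgeR). AHNAK, a large scaffold protein gene, was at 1755 to 2194 CPM in LAC at 0 h and 553 to 998 at 96 h, and at 1088 to 1944 CPM in LB2 at 0 h and 1036 to 1318 at 96 h (interaction -1.13 ± 0.24, adjusted p = 0.02, edgeR). VPS53, a subunit of the Golgi-tethering GARP complex, was at 130 to 151 CPM in LAC at 0 h and 82.7 to 102 at 96 h, and at 62.1 to 86.6 CPM in LB2 at 0 h and 86.5 to 91.3 at 96 h (interaction -0.81 ± 0.15, adjusted p = 0.00669, edgeR). These 3 genes were picked after their values were seen.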
